A study of Mus musculus with 100 samples.

Results

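Injured knee joints of STR/ort mice were compared with injured knee joints of C57BL/6 mice at 1-week post-injury. The comparison used 10 of the 100 libraries of the study, 5 of each strain, and covered all 17310 genes of the count table. The mice were 10 weeks old when the right knee was loaded in compression with 10 to 12 N, which ruptures the anterior cruciate ligament (ACL) and leads to post-traumatic osteoarthritis (PTOA). STR/ort is an inbred strain that also develops osteoarthritis without injury, and its samples are labelled highly susceptible to PTOA. C57BL/6 is the common inbred laboratory strain. The study's methods give its substrain as C57BL/6J, the one whose sequence is the mouse reference genome. Neither strain carries a transgene in the labels. Set beside them were the uninjured contralateral knees at 1-week, with 5 libraries of C57BL/6 and 4 of STR/ort, joints collected at 0-day before any injury, with 4 libraries of each strain, and injured joints at 1-day and 2-weeks, with 5 libraries of each strain and time. All these belong to experimental batch 1 except those of 2-weeks, which belong to batch 2. Each library was made from a whole knee from which most of the surrounding soft tissue had been removed, so it holds RNA of cartilage, bone, marrow, synovium, ligament and remaining muscle. In such bulk samples, fewer cells of a type and less RNA per cell cannot be told apart. The labels do not say that each library came from a separate animal, so p-values measure the spread between these libraries.

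Total counts ranged from 9358780 to 12561351 in the injured C57BL/6 joints and from 7860933 to 11074771 in the injured STR/ort joints, and no pair of libraries of a group was identical. Defining markers of cartilage, bone, synovium, muscle and marrow were present in both strains. C57BL/6 replicate 5 stood apart from the other C57BL/6 libraries with more matrix transcripts: the summed level of 27 fibrous matrix genes was 60320 CPM in it and 39580 to 43280 CPM in the other 4, where CPM is the count of a gene scaled to the size of its library. The Y-linked transcripts Ddx3y, Uty and Kdm5d were not called between the strains, and of 5 genes that mark female and male samples 1 was called, Eif2s3y, with 100 ± 10.7 CPM in C57BL/6 and 51.9 ± 9.36 CPM in STR/ort (mean ± SD, n = 5 each, as in all levels given this way).

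After the ligament ruptures, blood and inflammatory cells enter the joint, synovial and capsular fibroblasts multiply and lay down collagen, and cartilage and bone are remodelled by proteases, osteoblasts and osteoclasts. Much of this repair is driven by transforming growth factor beta (TGF-beta), bone morphogenetic protein (BMP) and Wnt signals, which act through secreted ligands, receptors and soluble antagonists. The marrow inside the bone ends contributes red cell precursors, developing B cells and neutrophils to the RNA.

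Calls required a fold change over 1.5 with an adjusted p under 0.05, and "rose" and "fell" are used below for levels in STR/ort relative to C57BL/6, with changes on the log2 scale. A gene that was not called may thus still have an adjusted p under 0.05 at a smaller fold change. In injured STR/ort joints 4349 genes were called against injured C57BL/6 joints, which is 25.1% of the genes tested, with 2307 higher (13.3%) and 2042 lower (11.8%). The split between higher and lower depends on the scaling: when libraries were scaled by 25 housekeeping genes in place of TMM factors, the median of all genes moved from 0.005 to -0.161 on the log2 scale and 1602 genes were higher and 3119 lower. Of the 25 housekeeping genes 0 passed both thresholds of a call, but 12 had an adjusted p under 0.05 by edgeR's quasi-likelihood test, 11 of them higher in STR/ort, and 18 had a positive log2 fold change. The CPM of the 5 STR/ort libraries did not overlap those of the 5 C57BL/6 libraries in 5716 genes tested (33%), above in 3104 (17.9%) and below in 2612 (15.1%), and 3347 of the called genes (77%) were among them. Most differences were moderate, with 2378 called genes under 2-fold, 191 over 4-fold higher and 191 over 4-fold lower. The genes followed below belong to 44 lists of pathways and cell types, and the count of called members of a list is to be read against the shares of all genes just given.

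**Figure D1:**
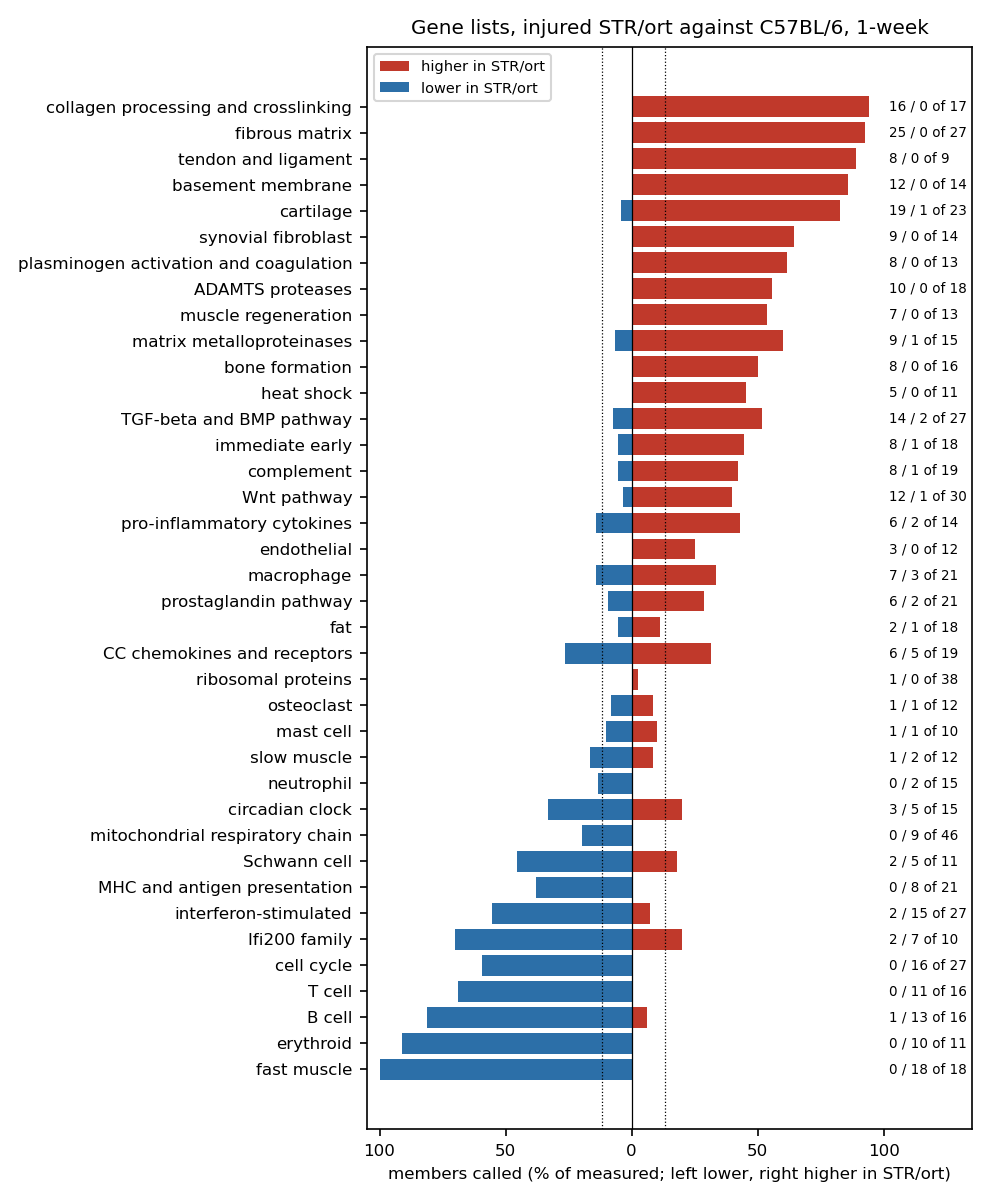
Share of the measured members of each list that was called higher (right, red) or lower (left, blue) in injured STR/ort joints, in percent, for lists with at least 9 measured members. Numbers at the right give members higher and lower of those measured, and dotted lines the shares of all genes, 13.3% and 11.8%. Matrix lists stand at the top with 16 of 17 and 25 of 27 members higher, and fast muscle at the bottom with 18 of 18 lower. The medians of 14 of the 44 lists, among them cartilage, bone formation, fast muscle and the respiratory chain, changed sign under at least 1 alternative, left-out libraries included.

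The genes with the smallest adjusted p included several with transcripts nearly missing from 1 strain. Ifi202b, a gene of the interferon-inducible Ifi200 family at chr1:173962569-173982844 of the mouse genome (GRCm38), had 0.103, 0, 0.196, 0 and 0.162 CPM in the C57BL/6 libraries and 69.1, 65.5, 66.6, 60.0 and 52.0 CPM in the STR/ort libraries. It was thus close to 0 in every C57BL/6 joint and clearly present in every STR/ort joint (log2 fold change 9.25, SE 0.27, adjusted p = 3.05e-21). The size of the fold change rests on few C57BL/6 counts, and the SE does not show that uncertainty. In the opposite direction, Hba-a2, an adult alpha-globin gene at chr11:32296492-32297310, had 1675, 1214, 1603, 2319 and 1492 CPM in C57BL/6 and 1.16, 1.83, 2.41, 2.03 and 2.09 CPM in STR/ort (log2 fold change -9.75, SE 0.29, adjusted p = 3.05e-21). Its near-identical copy was not analysed here, and reads of the pair may be split differently where a strain differs in sequence from the C57BL/6J reference, so the value is uncertain. The same caution holds for the Ifi200 family, whose members resemble each other.

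Ceacam2, a cell adhesion molecule, was at 0.248 ± 0.146 CPM in C57BL/6 and 13.8 ± 2.19 CPM in STR/ort. Mcpt2, a mast cell protease of mucosal type, rose from 0.150 ± 0.160 to 16.7 ± 2.13 CPM, and Tm4sf20, a membrane protein with 4 transmembrane segments, from 0.0845 ± 0.0805 to 15.1 ± 1.75 CPM. Gdpd3, a lysophospholipase D, was higher by a log2 fold change of 3.50 (SE 0.13), the zinc finger gene Zfp949 by 1.76 (SE 0.08), the predicted gene Gm5779 by 6.00 (SE 0.27) and C130026I21Rik by 2.84 (SE 0.14). Among the lower genes with the smallest adjusted p, Chil3, a chitinase-like protein of neutrophils and macrophages, had 730 ± 70.4 CPM in C57BL/6 and 164 ± 19.8 CPM in STR/ort. Cd5l, secreted by tissue macrophages, had 34.0 ± 8.19 and 1.19 ± 0.318 CPM, Ccr3, the eotaxin receptor of eosinophils, 28.3 ± 3.97 and 3.69 ± 0.476 CPM, and Ifitm6, an interferon-induced membrane protein of myeloid cells, 118 ± 20.0 and 16.1 ± 2.52 CPM. Gcnt1, an enzyme that branches O-linked sugars, fell by 1.82 on the log2 scale (SE 0.09), and the non-coding genes 2610507I01Rik and D730005E14Rik fell by 3.13 (SE 0.12) and by 3.48 (SE 0.18). These 16 genes also differed in the same direction, as called genes, at 0-day, at 1-day and at 2-weeks and in the contralateral joints.

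Genes of the fibrous extracellular matrix were higher in injured STR/ort joints. Of 27 genes of fibrous matrix 25 were higher and 0 lower, with a median log2 fold change of 1.16 against 0.005 over all genes, and Thbs1 and Eln were the members not called (0.19 and 0.38). Col3a1, the collagen III chain of healing and compliant tissue, had 6446, 6581, 5628, 6205 and 8529 CPM in the C57BL/6 libraries and 24870, 22820, 17070, 14790 and 18280 CPM in the STR/ort libraries. The lowest STR/ort joint was thus well above the highest C57BL/6 joint (log2 fold change 1.54, SE 0.20, adjusted p = 3.29e-07). Postn, periostin of injured connective tissue, had 1817, 1939, 1684, 1649 and 2405 CPM in C57BL/6 and 8379, 5725, 5524, 4421 and 4076 CPM in STR/ort (log2 fold change 1.55, SE 0.22, adjusted p = 1.29e-06), again without overlap.

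Several of the most abundant transcripts of the joint belonged to the same group. Col1a1, the main chain of bone and ligament collagen I, had 7282, 7006, 7805, 6272 and 11400 CPM in C57BL/6 and 22640, 19200, 11720, 12040 and 15270 CPM in STR/ort, and its highest C57BL/6 library, replicate 5, lay just below the lowest STR/ort library. With 1 and 2 factors removed by RUVg, a normalization on housekeeping genes described below with the cartilage genes, the log2 fold change of Col1a1 was 0.13 and 0.15 and no longer called. Its partner Col1a2 overlapped between the groups and rose by 0.84 on the log2 scale (SE 0.19, adjusted p = 0.000403), and its value was 0.005 and 0.074 with RUVg, not called. Fibronectin, Fn1, which binds cells to collagen, rose from 3886 ± 352 to 8486 ± 1331 CPM. Sparc, a collagen-binding glycoprotein, rose by 1.04 (SE 0.13) and biglycan, Bgn, by 1.18 (SE 0.13). The small proteoglycans decorin (Dcn) and fibromodulin (Fmod), which shape collagen fibrils, rose by 1.16 (SE 0.11) and 1.40 (SE 0.13), and Thbs4, a thrombospondin of tendon and muscle attachments, by 1.51 (SE 0.16). Summed over the list, fibrous matrix genes held a median of 4.36% of all counts in injured C57BL/6 joints and 10% in injured STR/ort joints.

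Of 17 measured genes of collagen processing 16 were higher and 0 lower (median 1.15), and of 14 basement membrane genes 12 were higher and 0 lower (median 0.86). P4ha3, a subunit of prolyl 4-hydroxylase, had 41.0, 50.3, 37.7, 44.0 and 55.7 CPM in C57BL/6 and 202, 177, 160, 124 and 146 CPM in STR/ort, so every STR/ort joint was more than 100 CPM and every C57BL/6 joint less. Plod2, a lysyl hydroxylase that prepares crosslinks, rose by 1.36 (SE 0.15), lysyl oxidase, Lox, by 1.11 (SE 0.16), Crtap, part of the prolyl 3-hydroxylation complex, by 1.21 (SE 0.13), and transglutaminase 2, Tgm2, by 0.98 (SE 0.11). In the basement membrane list, Col8a1 had 109 ± 25.4 CPM in C57BL/6 and 418 ± 72.4 CPM in STR/ort. Col18a1, the source of endostatin, nidogen 2 (Nid2) and laminin beta 1 (Lamb1) rose by 1.5, 1.05 and 1.23 (SE 0.16, 0.10 and 0.15).

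**Figure D2:**
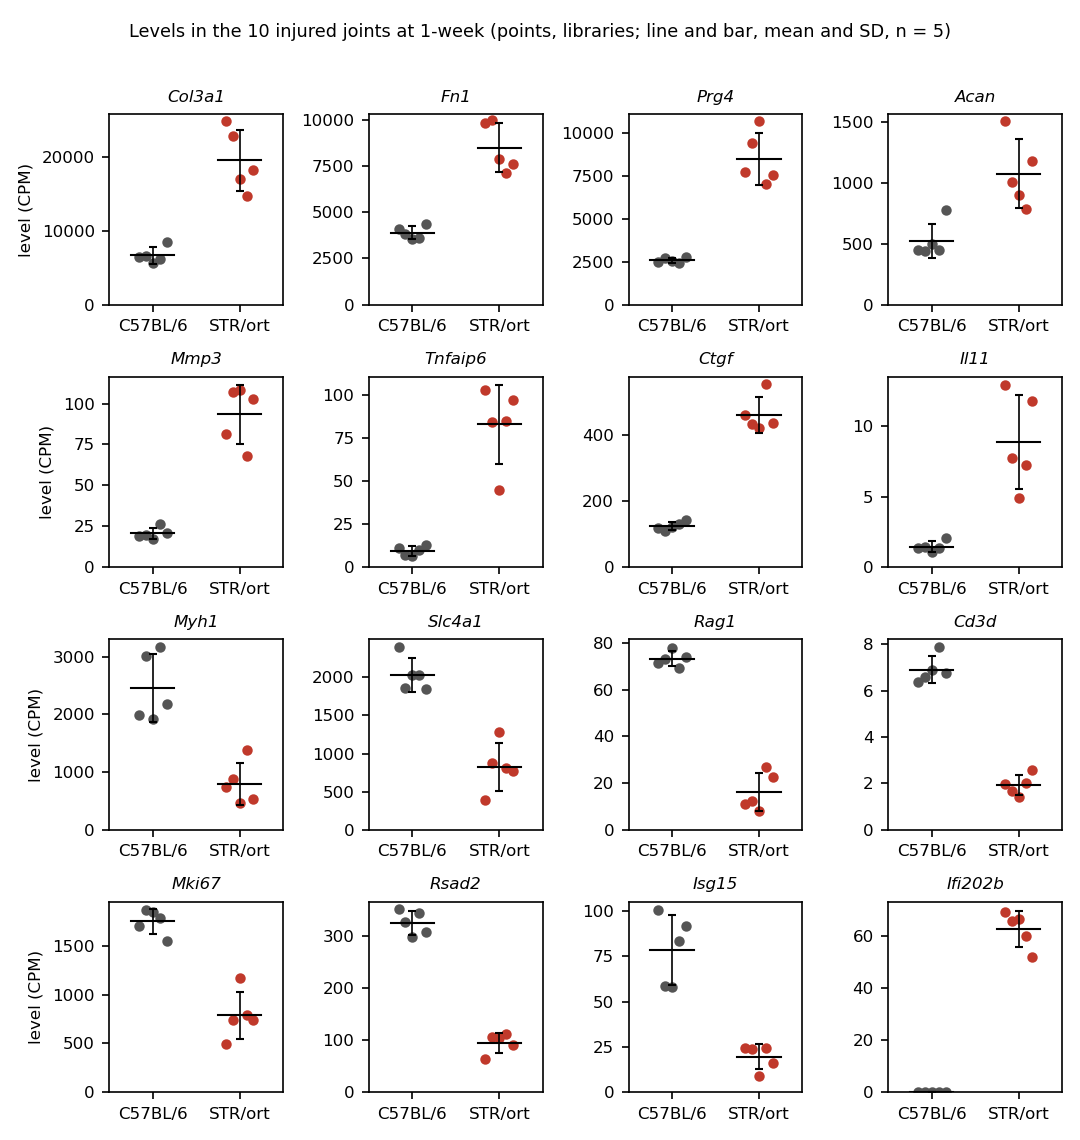
Levels of 16 genes in CPM (vertical axes, linear from 0) in the 5 injured C57BL/6 joints (grey) and the 5 injured STR/ort joints (red) at 1-week. Points are libraries, lines means and bars SD. No gene shown overlaps between the strains, and Acan has its highest C57BL/6 library, replicate 5 with 776 CPM, next to its lowest STR/ort library with 788 CPM.

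Cartilage genes were higher in the main fit, with 19 of 23 measured members higher and 1 lower (median 0.87), but 5 were higher and 3 lower after removal of 1 RUVg factor, and 2 and 2 after removal of 2, where the median fell to -0.23. RUVg takes factors of unwanted variation from the 25 housekeeping genes, and its first factor ranged from -0.112 to -0.0157 in injured C57BL/6 joints and from 0.175 to 0.327 in injured STR/ort joints, so it separated the strains itself. Of the 4349 genes called, 2651 were also called with 1 factor and 2436 with 2. Lubricin, Prg4, which coats cartilage and synovium, had 2463, 2736, 2547, 2405 and 2753 CPM in C57BL/6 and 7718, 9430, 10680, 7001 and 7544 CPM in STR/ort and kept its call under every alternative (log2 fold change 1.70, SE 0.18, adjusted p = 8.86e-09). Aggrecan, Acan, the large proteoglycan of cartilage, had 449, 442, 503, 448 and 776 CPM in C57BL/6 and 1510, 1012, 900, 788 and 1181 CPM in STR/ort. Its groups did not overlap, but the call was lost with RUVg. Col2a1, the chain of cartilage collagen II, ranged from 787 to 2310 CPM in C57BL/6 and from 1503 to 3708 CPM in STR/ort, which overlap, and its log2 fold change of 1.04 (SE 0.30) turned negative with RUVg. Comp, a cartilage and tendon matrix protein, rose by 1.37 (SE 0.17) and the chondrocyte transcription factor Sox9 by 1.44 (SE 0.21), while Sox6, its partner that is also expressed in red cell precursors and slow-fibre control, fell by 1.13 (SE 0.14).

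Of 16 genes of bone formation 8 were higher and 0 lower (median 0.67), a direction that was also lost with RUVg, where 2 were higher and 4 lower with 1 factor and 0 and 3 with 2. Bone sialoprotein, Ibsp, had 765, 944, 1046, 726 and 994 CPM in C57BL/6 and 1795, 1982, 1756, 1891 and 2446 CPM in STR/ort, without overlap. The osteocyte gene Mepe rose by 1.19 (SE 0.19), Dmp1, another matrix protein of osteocytes, by 0.78 (SE 0.16) and osteopontin, Spp1, by 0.79 (SE 0.12). Osteocalcin, Bglap, the classical osteoblast product, was not called, with 197 ± 23.4 CPM in C57BL/6 and 215 ± 65.0 CPM in STR/ort. Dkk1, a secreted Wnt inhibitor of osteocytes and chondrocytes, rose by 1.56 (SE 0.19). Among 12 measured osteoclast genes 1 was higher and 1 lower. The transcription factor Nfatc1 rose by 0.68 (SE 0.07) and carbonic anhydrase Car2, which red cells express too, fell by 1.18 (SE 0.19), whereas cathepsin K (Ctsk), the collagenase of the osteoclast, was not called (456 ± 29.9 and 620 ± 52.9 CPM).

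Of 15 measured matrix metalloproteinases, which cut the matrix, 9 were higher and 1 lower (median 0.95; 3 lower with housekeeping scaling or RUVg), and of 18 ADAMTS proteases 10 were higher and 0 lower (median 0.82). Stromelysin 1, Mmp3, had 19, 19.5, 17.5, 26.5 and 20.9 CPM in C57BL/6 and 81.5, 107, 108, 67.8 and 103 CPM in STR/ort (log2 fold change 2.16, SE 0.21, adjusted p = 2.59e-09). Every STR/ort joint was more than 2-fold above every C57BL/6 joint in this gene. Mmp19 rose from 17.6 ± 1.47 to 66.2 ± 10.9 CPM, the membrane-bound activator Mmp14 by 1.11 (SE 0.12), the gelatinase Mmp2 by 1.05 (SE 0.14) and the collagenase Mmp13 by 0.94 (SE 0.15), a call lost with 2 RUVg factors (0.26). The lower member was the neutrophil collagenase Mmp8, with 501 ± 30.9 CPM in C57BL/6 and 308 ± 47.6 CPM in STR/ort, and Mmp9, also stored by neutrophils, was not called (-0.45, SE 0.11) but was with housekeeping scaling (-0.61) and with RUVg.

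Among the ADAMTS proteases, the aggrecanase Adamts4 had 8.83 ± 1.80 CPM in C57BL/6 and 29.4 ± 11.9 CPM in STR/ort, Adamts15 rose by 1.45 (SE 0.14), Adamts1 by 1.21 (SE 0.14) and the procollagen processing enzyme Adamts3 by 1.25 (SE 0.13). Adamts5, the main aggrecanase of mouse cartilage, was higher by 0.52, under the fold threshold, and so was not called (60.3 ± 7.30 and 87.2 ± 4.79 CPM). Its adjusted p was at most 0.0141 over the alternatives (edgeR's quasi-likelihood test or DESeq2's Wald test). It was called with RUVg or without C57BL/6 replicate 2 or 5. Of 5 inhibitors 2 were higher and 1 lower. Timp1 had 53.0, 58.3, 56.1, 46.7 and 66.2 CPM in C57BL/6 and 251, 287, 163, 117 and 147 CPM in STR/ort, without overlap and with a wide spread among the STR/ort joints. Timp2 rose by 0.97 (SE 0.11), and Timp4 fell by 0.92 (SE 0.27), a call lost with 1 RUVg factor (-0.14) and a direction reversed with 2 (0.31). Timp3 was also higher by less than the fold threshold and so not called (0.55, SE 0.07). It was called with RUVg, without C57BL/6 replicate 3 or without STR/ort replicate 1.

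The plasminogen system, which cleaves fibrin and activates metalloproteinases, had 8 of 13 members higher and 0 lower (median 0.65), and 5 higher with housekeeping scaling or 2 RUVg factors. Tissue plasminogen activator, Plat, had 16.4, 23.1, 18.0, 18.5 and 21 CPM in C57BL/6 and 79.8, 81.7, 67.9, 50 and 57.1 CPM in STR/ort. It was higher in every STR/ort joint than in any C57BL/6 joint. Urokinase, Plau, rose by 1.01 (SE 0.12) and the protease inhibitor Serpine2 by 0.72 (SE 0.08).

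Of 14 synovial fibroblast genes 9 were higher and 0 lower (median 1.08), and of 9 tendon and ligament genes 8 were higher and 0 lower (median 1.09). Tnfaip6, a hyaluronan-binding protein released in inflammation, had 11.2, 6.94, 6.78, 9.79 and 13.1 CPM in C57BL/6 and 103, 84.5, 44.9, 85.3 and 97.4 CPM in STR/ort. It had a log2 fold change of 3.09 (SE 0.22, adjusted p = 4.84e-12). The serine protease Htra1 rose from 108 ± 14.3 to 342 ± 45.5 CPM, dermatopontin (Dpt) by 1.15 (SE 0.17), the fibroblast receptor Pdgfra by 1.01 (SE 0.11) and the hyaluronan synthase Has1 by 2.04 (SE 0.29). Keratocan, Kera, a proteoglycan of tendon, had 47.9 ± 7.95 CPM in C57BL/6 and 178 ± 16.1 CPM in STR/ort, tenomodulin (Tnmd) rose by 1.65 (SE 0.22) and the tendon transcription factor Scx by 1.09 (SE 0.17).

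In the TGF-beta and BMP pathway 14 of 27 members were higher and 2 lower (median 0.73). Ctgf, a matricellular protein induced by TGF-beta and by mechanical strain, had 119, 111, 123, 131 and 144 CPM in C57BL/6 and 461, 434, 422, 556 and 438 CPM in STR/ort. The groups did not overlap (log2 fold change 1.87, SE 0.12, adjusted p = 7.73e-13). Among ligands, Inhba, the activin A subunit, rose from 28.6 ± 5.43 to 94.4 ± 36.4 CPM and Gdf5, a BMP ligand of joints, by 2.33 (SE 0.37), while Bmp6 fell by 1.05 (SE 0.14). Ltbp1, which stores TGF-beta in the matrix, rose by 1.12 (SE 0.10) and the target Tgfbi by 1.35 (SE 0.13). The BMP antagonist Grem1 fell by 1.60 (SE 0.24).

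In the Wnt pathway 12 of 30 members were higher and 1 lower (median 0.45), and 9 higher and 3 lower with housekeeping scaling and 6 and 1 with 2 RUVg factors. The receptor Fzd1 had 18.9 ± 2.93 CPM in C57BL/6 and 53.6 ± 7.07 CPM in STR/ort. Besides Dkk1, the secreted antagonists Sfrp1 and Wif1 rose by 1.13 (SE 0.14) and 1.03 (SE 0.16). With RUVg the call of Wif1 was lost (0.56 and 0.41 with 1 and 2 factors), and with 2 factors that of Dkk1 (0.46). The lower member was Lef1, a nuclear effector that lymphocytes also express (6.17 ± 1.10 and 3.11 ± 1.33 CPM).

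**Figure D3:**
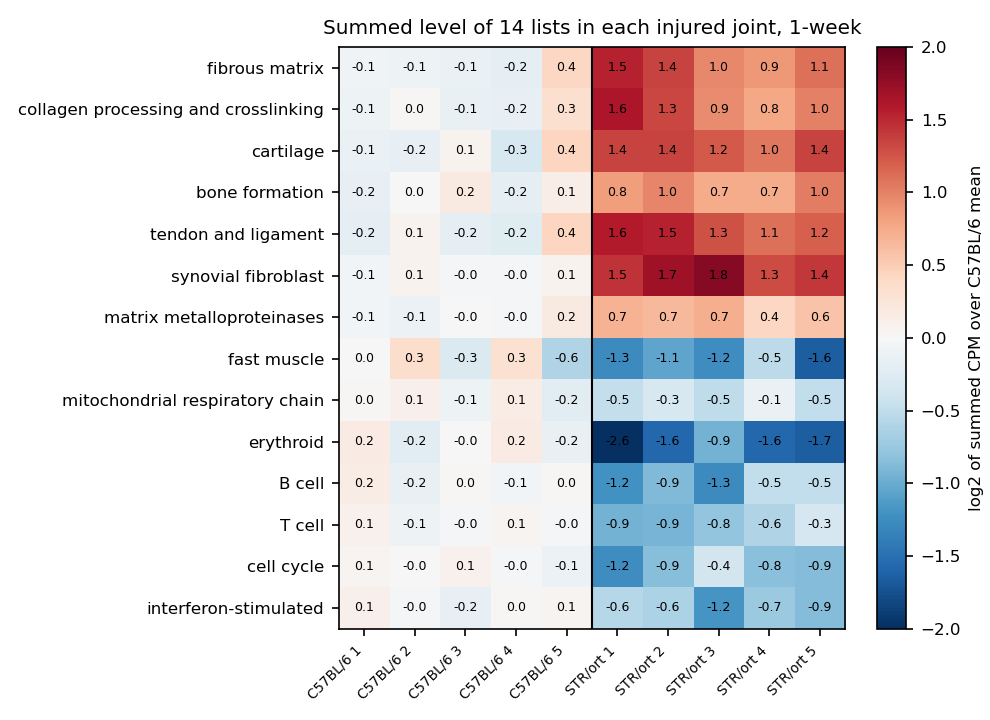
Summed level of 14 gene lists in each of the 10 injured joints (columns), as the log2 of the summed CPM over the mean of the 5 C57BL/6 joints. Red is above and blue below that mean. The erythroid sum includes Hba-a2, whose value is uncertain. The matrix lists are above it in all 5 STR/ort joints, C57BL/6 replicate 5 is the highest C57BL/6 joint for fibrous matrix, and fast muscle overlaps between C57BL/6 replicate 5 and STR/ort replicate 4. With RUVg the medians of the cartilage, bone formation, fast muscle and respiratory chain lists change sign.

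Fast muscle genes were lower in STR/ort, with 18 of 18 members lower and a median of -1.11 in the main fit, while 0 were called with RUVg and the median then reached 0.21. Myosin heavy chain 1, Myh1, of fast glycolytic fibres, had 1997, 3011, 1928, 3163 and 2173 CPM in C57BL/6 and 735, 886, 467, 1382 and 535 CPM in STR/ort (log2 fold change -1.63, SE 0.24, adjusted p = 1.28e-06). Myh4, the myosin of the fastest fibres and one of the highest transcripts of the joint, had 18300, 23760, 15140, 20610 and 10800 CPM in C57BL/6 and 7343, 8615, 9410, 12590 and 5734 CPM in STR/ort, and the lowest C57BL/6 joint, replicate 5, lay below the highest STR/ort joint. Of the other abundant members, Tnnt3 and Tnnc2 of the troponin complex fell by 1.10 (SE 0.22) and 1.27 (SE 0.22), creatine kinase Ckm by 1.18 (SE 0.22), the calcium pump Atp2a1 by 1.17 (SE 0.21) and the light chain Myl1 by 1.33 (SE 0.21). Casq1, the calcium store of the sarcoplasmic reticulum, and the release channel Ryr1 fell by 1.48 (SE 0.22) and 1.34 (SE 0.21). Together the 18 genes held 4.56% to 8.21% of all counts in injured C57BL/6 joints and 2.14% to 4.52% in injured STR/ort joints, and how far the amount of muscle left on the joint moves with the other lists was not tested.

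Of 12 slow muscle genes 1 was higher and 2 lower (median -0.16, which turned to 0.72 and 0.95 with 1 and 2 RUVg factors, where 4 were higher), namely Tnnt1 (1.02, SE 0.32), Actc1, the cardiac actin of developing muscle, and the respiratory subunit Cox6a2 (fell by 1.46 and by 1.45, SE 0.30 and 0.19). Of 46 respiratory chain genes 0 were higher and 9 lower (median -0.38). With housekeeping scaling 19 were lower (median -0.55), and with 1 and 2 RUVg factors 5 and 2 were lower and the median turned positive. Genes of regenerating muscle were higher in 7 of 13 and lower in 0 (median 0.70). Among them Tmem8c, the fusion protein myomaker, had 0.927, 0.801, 0.589, 0.710 and 1.29 CPM in C57BL/6 and 3.48, 2.74, 1.78, 3.15 and 2.29 CPM in STR/ort. Perinatal myosin, Myh8, rose from 17.8 ± 4.24 to 35.0 ± 9.09 CPM, Runx1, which muscle expresses after denervation, by 0.84 (SE 0.09) and the adhesion molecule Ncam1 by 0.59 (SE 0.09). Of 7 atrophy genes the metallothioneins Mt1 and Mt2, which many stressed cells induce, were higher (1.37 and 1.74, SE 0.19 and 0.21) and 3 were lower, including Foxo3 and Klf15 (fell by 0.92 and by 1.43, SE 0.15 and 0.24). With 1 and 2 RUVg factors 1 atrophy gene was lower, the median turned from -0.44 to 0.58 and 0.70, and Klf15 was at -0.49 and -0.20 and not called. Mt1 lost its call with 1 RUVg factor (0.67).

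Blood-forming and lymphoid genes were lower in injured STR/ort joints. Of 11 measured erythroid genes 10 were lower and 0 higher (median -1.10). Band 3, Slc4a1, the anion exchanger of red cells, had 2398, 1861, 2035, 2027 and 1844 CPM in C57BL/6 and 394, 877, 1278, 810 and 769 CPM in STR/ort. All STR/ort joints were below all C57BL/6 joints, with replicate 1 the lowest and replicate 3 the highest among them. Epb42 and Rhag of the red cell membrane fell by 1.52 (SE 0.19) and 1.12 (SE 0.19) and the heme enzyme Alas2 by 0.92 (SE 0.17), while the transcription factor Klf1 was not called (-0.38, SE 0.21). The erythroid genes held 0.537% to 0.73% of counts in C57BL/6 and 0.101% to 0.329% in STR/ort. These shares include Hba-a2, whose value is uncertain as said above, so the difference in the share is uncertain in size.

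Of 16 T cell genes 11 were lower and 0 higher (median -1.13), and of 16 measured B cell genes 13 were lower and 1 higher (median -1.01). The T cell receptor subunit Cd3d had 6.39, 6.59, 6.87, 7.89 and 6.78 CPM in C57BL/6 and 1.97, 1.70, 1.43, 2.03 and 2.59 CPM in STR/ort. Cd8a, Cd8b1 and Cd3g fell by 1.34, by 1.36 and by 1.38 (SE 0.18, 0.21 and 0.24). Rag1, which cuts antibody and receptor genes in developing lymphocytes, had 71.3, 73.0, 78.0, 69.4 and 74.0 CPM in C57BL/6 and 11.2, 12.4, 7.93, 26.7 and 22.6 CPM in STR/ort, so the highest STR/ort joint had less than the lowest C57BL/6 joint. The B cell genes Cd22 and Blk fell by 1.07 and by 1.27 (SE 0.15 and 0.18). The exception was Jchain of antibody-secreting plasma cells, which rose by 0.90 (SE 0.17) but lost its call with RUVg (0.35 and 0.42 with 1 and 2 factors), where 0 B cell genes were higher.

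Cell cycle genes were lower too, 16 of 27 with 0 higher (median -0.62), and 10 without C57BL/6 replicate 1 or without STR/ort replicate 1. With housekeeping scaling 24 were lower (median -0.79). Mki67, a protein of dividing cells, had 1704, 1869, 1844, 1779 and 1549 CPM in C57BL/6 and 496, 738, 1168, 794 and 744 CPM in STR/ort (log2 fold change -1.16, SE 0.15, adjusted p = 2.72e-07). The mitotic motors Kif11 and Cenpe fell by 1.34 and by 0.95 (SE 0.13 and 0.12), topoisomerase Top2a by 0.90 (SE 0.10) and the kinetochore gene Cenpf by 0.96 (SE 0.12). STR/ort replicate 3 was the highest STR/ort joint for Mki67, as it was for Slc4a1.

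Myeloid genes were divided. Of 15 neutrophil genes 2 were lower and 0 higher, Chil3 and Mmp8, while the calgranulin S100a9 was not called (3839 ± 307 and 2914 ± 401 CPM), although 14, S100a9 included, were lower with RUVg. The 2 lower genes are 13.3% of the list, near the 11.8% of all genes, but only 1 member had a positive log2 fold change. The summed level of the list was 14880 to 16730 CPM in C57BL/6 and 9462 to 13300 CPM in STR/ort, without overlap. Of 21 measured macrophage genes 7 were higher and 3 lower, and 7 and 6 with housekeeping scaling. The scavenger receptor Msr1 had 12.9, 11.4, 10.2, 10.3 and 12.7 CPM in C57BL/6 and 47.4, 50.3, 43.6, 27.6 and 26.3 CPM in STR/ort, Cd14 rose by 1.38 (SE 0.15) and Apoe by 0.76 (SE 0.10). The integrin Itgam of all myeloid cells fell by 0.87 (SE 0.09) and the haemoglobin scavenger Cd163 by 0.73 (SE 0.16). Marco, a scavenger receptor, had 1.13, 6.76, 1.47, 1.18 and 0.404 CPM in C57BL/6 and 0, 0.261, 0, 0.203 and 0 CPM in STR/ort, near the limit of detection in STR/ort. Without C57BL/6 replicate 2, its highest library, Marco fell by 3.41 in place of 4.51. With 1 and 2 RUVg factors it was at -2.03 and -3.28 and not called. In the mast cell list of 10 measured genes 1 was higher, the chymase Cma1 (1.31, SE 0.21), and 1 lower, the IgE receptor chain Ms4a2 (fell by 1.41, SE 0.19).

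Interferon-stimulated genes, which cells switch on against viruses, were lower in injured STR/ort joints in 15 of 27 and higher in 2 (median -0.72). Rsad2, the antiviral protein viperin, had 352, 327, 298, 345 and 309 CPM in C57BL/6 and 63.7, 106, 104, 111 and 91.3 CPM in STR/ort (log2 fold change -1.79, SE 0.13, adjusted p = 3.51e-12). The ubiquitin-like Isg15 had 100, 58.8, 58.2, 83.1 and 91.3 CPM and 24.6, 23.6, 9.18, 24.4 and 15.9 CPM, and Oas3, which makes the 2-5A signal that activates RNase L, 37.0, 34.7, 26.5, 35.1 and 36.5 CPM and 8.01, 7.83, 3.30, 8.54 and 6.77 CPM. In each of these genes every STR/ort joint was below every C57BL/6 joint. The transcription factor Irf7 fell by 1.20 (SE 0.22), Ifit1 by 0.96 (SE 0.22) and Ifit2 by 0.72 (SE 0.09). The higher members were Ifi44 (1.05, SE 0.28) and Ifi44l, a pair of neighbouring genes with similar sequence. Ifi44l had 2 counts over the 5 C57BL/6 libraries and 168 over the 5 STR/ort libraries, a ratio of CPM of 99.6 with an exact binomial 95% interval of 27.1 to 829 that covers counting error only.

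Promoters of some lower interferon-stimulated genes in the C57BL/6J reference are shown (RefSeq, GRCm38.p6), 250 bases before to 50 bases from the transcription start, each on the strand of its gene. The search was for GAAANNGAAA, the core of the interferon-stimulated response element, in either strand (TTTCNNTTTC on the other), and capitals mark the matches, which overlap in Isg15. Of the 6 windows read, those of Irf7 and Oasl2 held 0 matches and are not shown, so the 4 printed ones were chosen for holding a match. Isg15 is at chr4:156200769-156201068 on the minus strand, Rsad2 at chr12:26456403-26456702 on the minus strand, Oas3 at chr5:120777610-120777909 on the minus strand and Ifit1 at chr19:34640639-34640938 on the plus strand.
Isg15: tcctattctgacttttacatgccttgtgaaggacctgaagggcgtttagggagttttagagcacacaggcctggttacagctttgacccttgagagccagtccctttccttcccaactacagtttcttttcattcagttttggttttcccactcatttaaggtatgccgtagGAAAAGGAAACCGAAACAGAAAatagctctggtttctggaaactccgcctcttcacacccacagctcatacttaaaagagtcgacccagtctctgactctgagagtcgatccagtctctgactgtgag
Rsad2: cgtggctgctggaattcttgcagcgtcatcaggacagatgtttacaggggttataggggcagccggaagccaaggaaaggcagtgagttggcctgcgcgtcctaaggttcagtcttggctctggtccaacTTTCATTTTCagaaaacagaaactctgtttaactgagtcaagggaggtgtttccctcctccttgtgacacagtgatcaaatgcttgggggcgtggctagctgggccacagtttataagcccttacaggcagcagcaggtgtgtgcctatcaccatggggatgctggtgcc
Oas3: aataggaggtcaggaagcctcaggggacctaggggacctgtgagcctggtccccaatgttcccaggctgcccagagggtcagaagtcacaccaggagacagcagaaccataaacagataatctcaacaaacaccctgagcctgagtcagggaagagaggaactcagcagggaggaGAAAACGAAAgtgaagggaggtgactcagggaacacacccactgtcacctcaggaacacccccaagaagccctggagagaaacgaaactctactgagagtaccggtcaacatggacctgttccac
Ifit1: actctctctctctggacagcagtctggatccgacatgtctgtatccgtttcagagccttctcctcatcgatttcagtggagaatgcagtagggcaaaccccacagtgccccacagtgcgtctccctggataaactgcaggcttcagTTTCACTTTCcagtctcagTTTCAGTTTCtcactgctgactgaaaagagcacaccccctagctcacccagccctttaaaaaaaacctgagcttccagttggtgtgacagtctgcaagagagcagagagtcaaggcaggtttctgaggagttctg
The motif occurred 3 times in Isg15, 1 time in Rsad2 and in Oas3 and 2 times in Ifit1. Of 12794 tested genes with a known promoter 402 held it (3.14%), of 1516 called lower 80 (5.28%), of 1645 called higher 51 (3.1%), and of 19 interferon-stimulated genes 9 (47.4%), of which 5 of 8 called lower (62.5%). These are matches of letters in a window and not measured sites.

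The Ifi200 family of DNA sensors on chromosome 1 had 7 of 10 measured members lower and 2 higher. Ifi203, Pydc3 and Pyhin1 fell by 1.30, by 1.74 and by 1.86 (SE 0.09, 0.14 and 0.17), against the rise of Ifi202b given above. Of 21 genes of antigen presentation 8 were lower and 0 higher (median -0.49), with 4 lower without C57BL/6 replicate 1 or without STR/ort replicate 3, and 18 and 16 lower with 1 and 2 RUVg factors (median -1.14 with 1). They included Ciita, the switch of class II genes (10.5 ± 1.56 and 5.61 ± 1.94 CPM), the immunoproteasome subunit Psmb9 and the peptide transporter Tap1 (fell by 0.68 and by 0.72, SE 0.12 and 0.15). H2-T22, a class Ib gene, fell by 1.52 (SE 0.12). Genes of the H2 region vary in sequence between strains, so their values are uncertain in STR/ort.

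Cytokines and chemokines did not move as 1 group. Of 14 measured pro-inflammatory cytokines 6 were higher and 2 lower, a split that was 2 and 1 with 1 RUVg factor. Il11, a cytokine of the IL-6 family made by stromal cells, had 1.34, 1.42, 1.08, 1.34 and 2.10 CPM in C57BL/6 and 12.9, 7.70, 4.90, 7.22 and 11.8 CPM in STR/ort (log2 fold change 2.56, SE 0.29, adjusted p = 2.39e-08). Il6 had 0.309, 0.801, 0.393, 0.710 and 0.323 CPM and 2.21, 1.18, 1.34, 3.56 and 1.89 CPM, higher in each STR/ort joint at a low level, and its call was lost with RUVg (1.86 and 1.79 with 1 and 2 factors). Il33, an alarmin of stromal nuclei, rose by 1.36 (SE 0.19) and Tnfsf11, the osteoclast factor RANKL, by 0.93 (SE 0.19), but Tnfsf11 was at 0.019 with 1 RUVg factor and at -0.023 with 2. Il1b of myeloid cells fell by 0.59 (SE 0.23, adjusted p = 0.031), with overlapping libraries and a call lost under 10 alternatives, and Osm by 0.71 (SE 0.21).

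Among neutrophil-attracting CXC chemokines and their receptors 3 of 8 were higher and 1 lower, among CC chemokines and receptors 6 of 19 higher and 5 lower, and among other CXC chemokines 3 of 7 higher and 1 lower. Ccl2, which draws monocytes, had 0.721, 0.712, 1.08, 0.947 and 0.969 CPM in C57BL/6 and 5.69, 8.49, 4.37, 3.35 and 4.68 CPM in STR/ort, whereas its receptor Ccr2 on monocytes was lower, with 140 ± 25.2 and 58.0 ± 7.56 CPM. Cxcl5, Cxcl1 and Cxcl3 rose by 2.12, 2.34 and 3.08 (SE 0.33, 0.39 and 0.57) at levels of at most 16.2 CPM. All 3 calls were lost with RUVg, where the values were 1.40, 1.21 and 1.35 with 1 factor and 1.67, 1.58 and 2.01 with 2, and the list then held 0 higher members. The receptor Cxcr1 had 26 counts over the C57BL/6 libraries and 0 over the STR/ort libraries, at least 7.13-fold lower against a floor of 3 counts over the group. Ccl5 of lymphocytes had 5.98 ± 1.05 CPM in C57BL/6 and 1.28 ± 0.526 CPM in STR/ort. Ccl9 rose by 1.20 (SE 0.09), and the stromal chemokines Cxcl14 and Cxcl16 by 1.53 and 1.19 (SE 0.13 and 0.15). Cxcl12, which holds blood-forming cells in the marrow, was not called (706 ± 45.2 and 482 ± 118 CPM), but was called lower under 6 of 19 alternatives, namely housekeeping scaling, both RUVg fits, the replicate block and without STR/ort replicate 4 or 5.

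Of 19 measured complement genes 8 were higher and 1 lower, and 5 higher with 3 and 4 lower with 1 and 2 RUVg factors. The C1 inhibitor Serping1 had 183 ± 12.1 CPM in C57BL/6 and 395 ± 44.4 CPM in STR/ort and the protease C1ra rose by 0.96 (SE 0.11). Masp1 and Masp2 of the lectin pathway rose by 1.38 (SE 0.26) and from 0.0635 ± 0.103 to 1.71 ± 0.845 CPM (4 counts in all in C57BL/6), and C6 of the membrane attack complex fell by 0.59 (SE 0.21, adjusted p = 0.0208), a call lost under 7 alternatives. In the prostaglandin and leukotriene pathway 6 of 21 genes were higher and 2 lower, with 5 lower with RUVg. Cyclooxygenase 2, Ptgs2, had 5.25, 9.17, 5.11, 6.95 and 10.5 CPM in C57BL/6 and 29.5, 14.1, 13.6, 19.7 and 25.1 CPM in STR/ort, without overlap, and the prostaglandin E synthase Ptges rose by 0.92 (SE 0.16). The secreted phospholipase Pla2g2a, whose gene is disrupted in C57BL/6, had 0.0787 ± 0.0853 CPM there and 2.31 ± 1.25 CPM in STR/ort. The lipoxygenases Alox5 and Alox15 of myeloid cells were the lower members (fell by 0.89 and by 1.27, SE 0.08 and 0.10).

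Clock, stress and other cell type lists differed in their share of called members. It was 66.7% for skin, 63.6% for Schwann cell, 53.3% for clock, 50% for immediate early and 45.5% for heat shock genes, above the 25.1% of all genes. Endothelial (25%), fat (16.7%) and ribosomal protein genes (2.63%) were at or below that share. Of 15 clock genes 3 were higher and 5 lower: the activator Npas2 had 8.09 ± 1.51 CPM in C57BL/6 and 25.4 ± 5.79 CPM in STR/ort and Cry1 rose by 0.62 (SE 0.08), while the output gene Dbp had 9.28 ± 0.261 and 2.51 ± 1.38 CPM and Nr1d2 fell by 1.07 (SE 0.14). The call of Cry1 was lost with housekeeping scaling (0.45) and with RUVg, and that of Nr1d2 with 1 and 2 RUVg factors (-0.36 and -0.41). With housekeeping scaling 1 clock gene was higher and 5 lower. The labels give no time of day for the collection. Of 18 immediate early genes 8 were higher and 1 lower (5 higher with 2 RUVg factors), with Maff and Klf4 higher (1.26 and 0.95, SE 0.13 and 0.12) and Btg2 lower (fell by 0.88, SE 0.11). Of 11 heat shock genes 5 were higher and 0 lower, led by the chaperone Hspa8 (1690 ± 148 and 2886 ± 261 CPM), and 3 were higher with housekeeping scaling, with 2 RUVg factors or without STR/ort replicate 5. Of 12 endothelial genes 3 were higher and 0 lower (1 higher with housekeeping scaling and 6 with RUVg), among them Emcn (0.83, SE 0.11). Of 11 Schwann cell genes 2 were higher and 5 lower. Pmp22, a myelin gene that fibroblasts express too, rose by 1.10 (SE 0.12) and the myelin gene Mbp and the glial filament Gfap fell by 0.76 and by 1.17 (SE 0.11 and 0.20). Of 18 fat genes 2 were higher, leptin (Lep) with 3.23 ± 0.565 and 14.1 ± 2.37 CPM and the desaturase Scd1 (1.21, SE 0.17), and 1 lower, but 5 were lower with housekeeping scaling and 3 without STR/ort replicate 4 or 5. Of 6 measured skin genes 2 were higher and 2 lower, with Sfn lower (fell by 1.44, SE 0.18). Of 38 ribosomal protein genes 1 was higher and 0 lower, Rps19 (0.76, SE 0.07).

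In the contralateral joints, which were not loaded, 3851 genes were called between the same strains (22.2%), 2272 higher (13.1%) and 1579 lower (9.12%) in STR/ort, and 1760 higher of 4173 when scaled by the housekeeping genes. Of the 2307 genes higher in injured joints 1657 were also higher in contralateral joints, 71.8% of the former and 72.9% of the latter, and of the 2042 lower genes 1199 were also lower there (58.7% and 75.9%). These joints are the other knees of injured mice, so the comparisons may share animals. In contralateral joints 23 of 27 fibrous matrix genes were higher and 0 lower (median 1.38), 16 of 17 genes of collagen processing were higher, and 22 of 23 cartilage genes were higher and 1 lower (median 1.24, which fell to -0.01 with 2 RUVg factors). Fast muscle genes were lower in 13 of 18 there (0 with RUVg), erythroid genes in 9 of 11 (4 with 2 RUVg factors and 5 without contralateral STR/ort replicate 1) and T cell genes in 12 of 16 (7 and 8 with 1 and 2 RUVg factors). The regeneration genes of muscle, higher in 7 of 13 in injured joints, were higher in 0 and lower in 1 in contralateral joints, and the interaction described next called 0 of the 13 (up to 3 over the alternatives). Of the genes called in injured joints, 533 higher and 696 lower genes were called neither in contralateral joints nor at 0-day.

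Whether the strains differ by another amount in injured than in contralateral joints was tested by the interaction of strain and injury. It was called in 85 genes (0.491%), 24 with a more positive (0.139%) and 61 with a more negative (0.352%) difference in injured joints, and 54 of the 85 were also called in the injured comparison, with which it shares its injured libraries. At an unadjusted p below 0.05 there were 1991 genes. With the replicate number as a block the interaction was called in 235 genes, 86 more positive and 149 more negative, of which 78 were among the 85. Leaving out 1 library moved the count from 48, without injured C57BL/6 replicate 1, to 142, without contralateral STR/ort replicate 3. Prg4 had 988 ± 177 CPM in contralateral C57BL/6 and 10630 ± 5457 CPM in contralateral STR/ort joints (n = 5 and 4), so its strain difference was 3.44 on the log2 scale there and 1.70 in injured joints (interaction fell by 1.74, SE 0.26, adjusted p = 0.000568). Fn1 differed by 2.70 in contralateral and by 1.11 in injured joints (adjusted p of the interaction = 0.000919), Mmp3 by 3.97 and 2.16 (adjusted p = 0.00835), Dpt by 2.45 and 1.15 (adjusted p = 0.00642) and Adamts16 by 3.19 and 0.85 (adjusted p = 0.00455). These matrix and synovial genes were higher in STR/ort in both joints, with the larger difference in the contralateral joints.

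With the smallest p among the negative interactions stood Megf10, a phagocytosis receptor also of muscle satellite cells, with 5.81 ± 0.555 and 23.3 ± 7.73 CPM in contralateral C57BL/6 and STR/ort joints and 7.95 ± 0.779 and 9.41 ± 1.02 CPM in injured ones. Sned1, a matrix protein, had 3.06 ± 1.07 and 12.5 ± 4.46 CPM against 9.49 ± 1.48 and 7.55 ± 1.37 CPM, and the adhesion molecule Cadm3 15.5 ± 1.39 and 33.0 ± 8.38 CPM against 17.8 ± 0.774 and 17.9 ± 1.82 CPM (adjusted p of the interactions 2.38e-05, 7.35e-05 and 0.000568). In these 3 genes the strains were called apart in contralateral joints and not in injured ones. In the other direction, Tnnt2, the cardiac troponin T that regenerating muscle expresses, had 5.37 ± 1.97 and 4.45 ± 1.12 CPM in contralateral joints and 7.28 ± 2.50 and 36.8 ± 13.5 CPM in injured joints (interaction 2.56, SE 0.39, adjusted p = 0.000917). The IL-33 receptor Il1rl1 had 34.1 ± 4.26 and 30.3 ± 2.08 CPM against 37.2 ± 4.48 and 87.8 ± 27.8 CPM (adjusted p = 0.000919), and the lipid phosphatase Plpp1 and the nectin-like adhesion molecule Pvr had interactions of 0.64 and 0.99 (adjusted p = 0.00435 and 0.00835). The strains differed for these 4 in injured joints and were not called in contralateral ones.

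**Figure D4:**
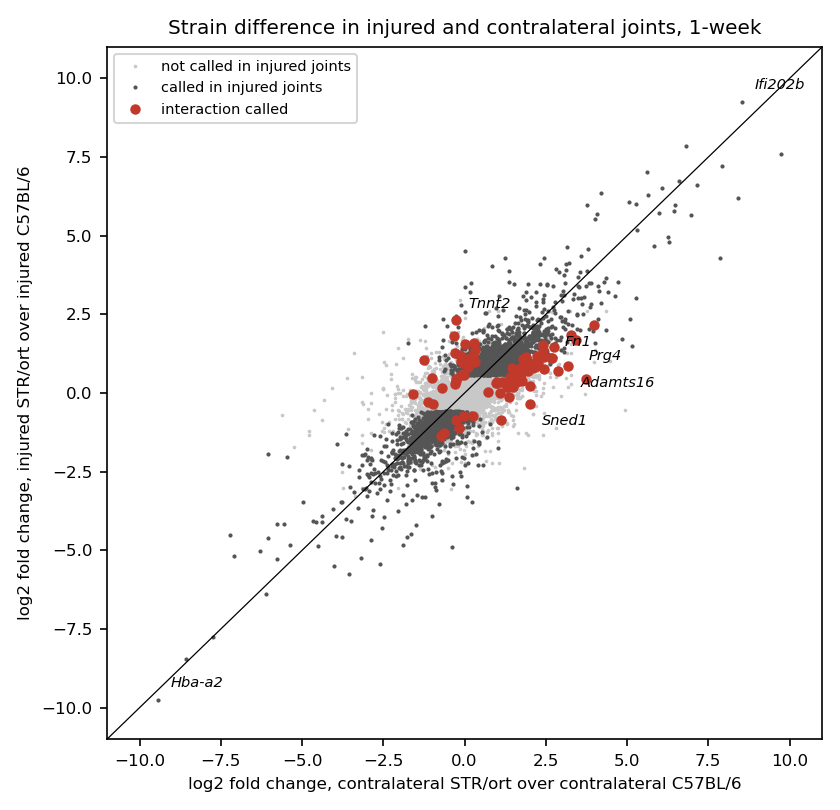
Log2 fold change of STR/ort over C57BL/6 for each tested gene in injured joints (vertical axis) against contralateral joints (horizontal axis) at 1-week. Grey points are not called in injured joints, dark points called, red points called for the interaction, and the line marks equal differences. Ifi202b and Hba-a2 lie near the line at its ends, Prg4, Fn1, Sned1 and Adamts16 below it and Tnnt2 above it.

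Before injury, at 0-day, 2391 genes were called between the strains (13.8%), 1354 higher (7.82%) and 1037 lower (5.99%) in STR/ort. In injured joints of 1-day 2141 genes were called (12.4%), 847 higher (4.89%) and 1294 lower (7.48%), and in those of 2-weeks 1793 (10.4%), 935 higher (5.4%) and 858 lower (4.96%). Of the genes higher in injured joints at 1-week, 18.6% were also higher at 0-day, 19.2% at 1-day and 30.4% at 2-weeks, which is 31.6%, 52.4% and 75.1% of the genes higher at those times. Of the lower genes 24.3%, 30.7% and 29.2% were also lower, or 47.9%, 48.4% and 69.6%. In all 5 comparisons 195 genes were higher and 198 lower. The opposite direction was called at 0-day for 90 of the higher and 256 of the lower genes, at 1-day for 138 and 34, and at 2-weeks for 7 and 19.

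The matrix lists stood differently at the other times. At 0-day 0 of 27 fibrous matrix genes were higher and 4 lower (median -0.30), at 1-day 0 higher and 9 lower (median -0.27), at 1-week 25 higher, and at 2-weeks 19 higher and 0 lower (median 0.81), and the sign of these medians was the same under every alternative run at each time (at 0-day, 1-day and 2-weeks RLE factors, 1 RUVg factor, DESeq2 and left-out libraries). Of 17 genes of collagen processing 0 were higher and 2 lower at 0-day and at 1-day, and 3 higher and 0 lower at 2-weeks (median 0.46). Of 14 basement membrane genes 2 were higher and 0 lower at 0-day, 1 and 1 at 1-day, and 3 and 0 at 2-weeks (median 0.39). Col3a1 differed by 0.05 at 0-day, by -0.75 at 1-day, by 1.54 at 1-week and by 1.11 at 2-weeks on the log2 scale, whereas Col1a1 differed by -0.79, -0.21 and 1.01 up to 1-week and had equal levels at 2-weeks (14490 ± 1582 CPM in C57BL/6 and 14420 ± 1710 CPM). Cartilage genes were lower in 11 of 23 and higher in 1 at 0-day (4 to 15 lower over the alternatives). At 1-day 2 were higher and 0 lower (median 0.28), and at 2-weeks 1 and 1 (median 0.1). Matrix metalloproteinases had 1 of 15 higher and 4 lower at 0-day, 2 and 2 at 1-day and 5 and 1 at 2-weeks. ADAMTS proteases had 1 of 18 higher and 4 lower, 2 and 2, and 7 and 0 at these times. Fast muscle genes were higher in 14 of 18 at 0-day (10 to 14 over the alternatives), lower in 14 at 1-day (1 with 1 RUVg factor) and lower in 1 at 2-weeks. Fast muscle held a median of 7.03% of counts in C57BL/6 and 10.6% in STR/ort at 0-day, 6.8% and 2.78% in injured joints at 1-week and 11.9% and 10.6% at 2-weeks. Whether these differences change between times was not tested.

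Interferon-stimulated genes were lower in 8 of 27 at 0-day (4 with 1 RUVg factor), 15 at 1-day, 15 at 1-week and 14 at 2-weeks, and the Ifi200 family in 8, 7, 7 and 6 of 10, with negative medians for both under every alternative run at each time. Erythroid genes were lower in 5, 2, 10 and 10 of 11 at these times (3 to 5, 1 to 2, 9 to 11 and 9 to 10 over the alternatives). B cell genes were lower in 0 of 16 at 0-day, higher in 9 at 1-day and lower in 13 at 1-week and 8 at 2-weeks. Over the alternatives these counts were 0 to 3, 3 to 10 (3 with 1 RUVg factor), 13 to 14 and 4 to 9 (4 and 5 without STR/ort replicate 1 and 3). T cell genes were lower in 7, 2, 11 and 9 of 16 (3 to 7, 1 to 2, 10 to 12 and 7 to 11). Rag1 differed by -0.31, 0.35, -2.19 and -0.86 at the 4 times. Immediate early genes were higher in 18 of 18 at 0-day (median 2.24), 5 at 1-day (2 without STR/ort replicate 5 and 9 without its replicate 1), 8 at 1-week and 4 at 2-weeks. Since 2-weeks belongs to another batch, time and batch cannot be told apart in its values.

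**Figure D5:**
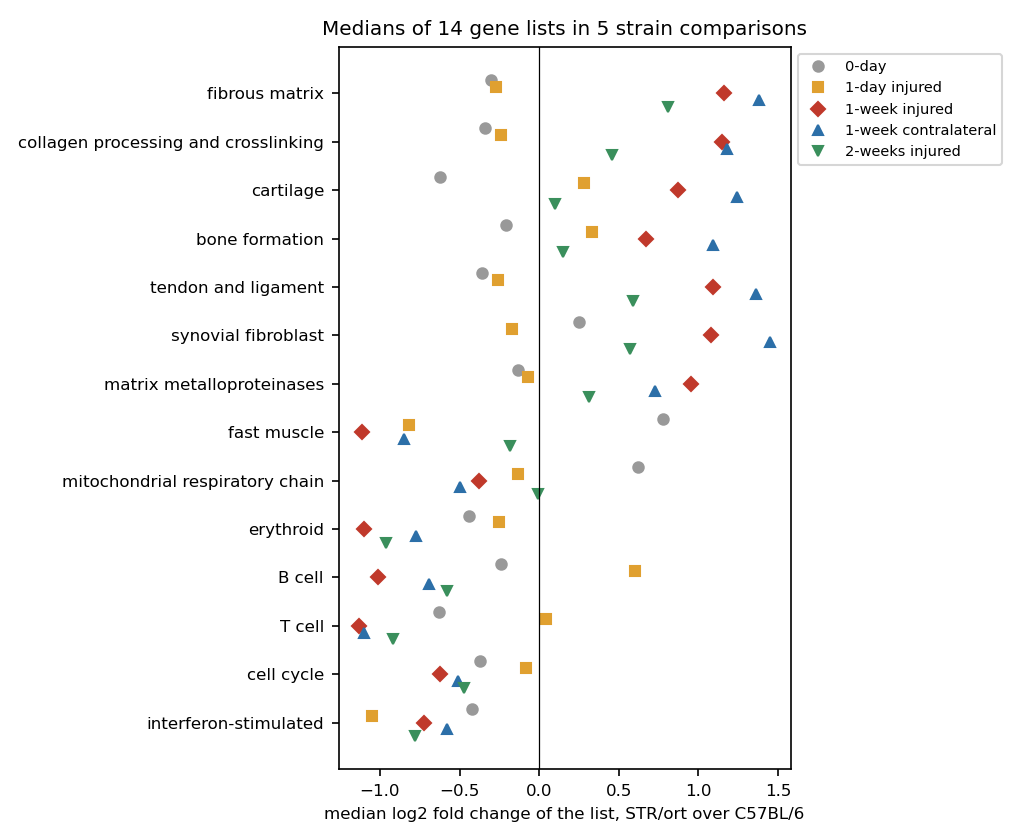
Median log2 fold change of STR/ort over C57BL/6 for 14 gene lists (rows) in 5 comparisons (symbols): 0-day joints, contralateral joints at 1-week, and injured joints of the 3 later times. Fibrous matrix is below 0 at 0-day and 1-day and above 0 at 1-week and 2-weeks, fast muscle is above 0 at 0-day only, and interferon-stimulated genes are below 0 throughout. In injured joints at 1-week the sign of the cartilage, bone formation, fast muscle and respiratory chain medians turns with RUVg, and in contralateral joints that of the cartilage, fast muscle and respiratory chain medians.

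Several called genes lay side by side on the chromosomes in the same direction. The runs named here were chosen from more runs of at least 4 genes, and how many runs arise when 25.1% of genes are called was not tested. The longest included 7 higher genes at chr2:176798179-177957386 (Gm14295 to Gm14326, with Zfp970). A run of 6 lower genes at chr5:104935057-105295871 reached from Abcg3 to Gbp6. Along the tested genes in order of position on GRCm38, 7 neighbours were lower at chr5:120730333-120907544 (Oas2, Oas3, Oas1e, Oas1c, Oas1b, Oas1g and Oas1a) and 5 lower at chr1:173747293-173942866 (Ifi204 to Ifi203). The class II genes H2-Ob, H2-Ab1, H2-Aa, H2-Eb1 and H2-Eb2 were lower at chr17:34238905-34341410, and the fast myosin genes Myh2, Myh1 and Myh4 with 2310065F04Rik at chr11:67112461-67260447. A run of 6 higher genes at chr5:104079108-104505819 held the bone matrix genes Dmp1, Ibsp, Mepe and Spp1 between Sparcl1 and Pkd2, 4 higher genes at chr10:97479500-97681908 were the small proteoglycans Dcn, Lum, Kera and Epyc, and 4 higher phospholipase genes (Pla2g2d, Pla2g5, Pla2g2a and Pla2g2e) lay at chr4:138775735-138882817. Several of these clusters are families of similar sequence, for which reads may be counted to the wrong member.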

How the data were processed

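RNA from whole knee joints was sequenced from poly(A) libraries, and the authors aligned reads to mm10 with TopHat2 2.0.11 and counted them per RefSeq gene with featureCounts. The deposited table holds whole-number counts for 17313 rows and 100 libraries, of which 3 repeated rows were dropped. Whether counting used strand is not given in the sources used here, so overlapping and antisense genes cannot be told apart. Counts were tested with edgeR 4.0.16 (R 4.3.3), using the quasi-likelihood F test with TMM factors over all 28 libraries of 1-week, 1 mean per strain and joint, without the RUVSeq factors of the study, whose number is not stated. P-values were adjusted by the Benjamini-Hochberg method over all 17310 genes, and no filter was applied. SE is the absolute log2 fold change over the square root of F. It is derived from the test and is not a standard error of the estimate. For genes near 0 in 1 strain it can be smaller than the counting error of the fold change. CPM levels used TMM factors from the 100 libraries together. Alternatives were RLE factors, housekeeping scaling, RUVg with 1 or 2 factors (by its formula), DESeq2 1.42.0, low-count filters, a replicate block and leaving out each library. At 0-day, 1-day and 2-weeks RLE factors, 1 RUVg factor, DESeq2 and leaving out each library were run. The fit was tested on simulated counts with 200 changed genes, where 40% of 1.5-fold (the threshold itself), 96% of 2-fold and 100% of 3-fold changes were called. Of the unchanged genes 8 were called. The changed genes were drawn from well-counted genes only, so these shares do not hold for genes of low level. They were also far fewer than the genes called here, so the simulation does not show how the scaling behaves with so many differences. Named genes were the 8 called genes in each direction with the smallest adjusted p, the 6 of highest level with at least 2-fold change, up to 4 called members of each list with further members for its role, and the 4 interaction genes in each direction with the smallest adjusted p. A few genes that this rule gives are not reported here. Members and lists were chosen with earlier results of these data known. Gene positions are from GRCm38.p6. Intervals and floors cover counting error only.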

Additional observations from a re-analysis of the deposited data

Results flagged for a closer look

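In 496 groups of 5 values tested (named genes and list sums in each strain's injured joints), 31 had 1 library far from the other 4 by Dixon's ratio, where chance gives about 1 in 20. Of these, 14 had C57BL/6 replicate 5 as the lone library. It was high for Thbs1 (542 CPM, next 330), Col1a2 (10900, next 7320), Sparc (4800, next 3440), Bgn (3350, next 2310), Fmod (605, next 423), Col8a1 (154, next 105) and Acan (776, next 503). The same library was high for Mmp14 (524 CPM, next 372), Timp2 (702, next 526) and Maff (6.3, next 5.16), and for the summed CPM of the metalloproteinase inhibitors (1100, next 889), fibrous matrix (60300, next 43300) and the TGF-beta and BMP pathway (1590, next 1360), and low for Ccl9 (40.9, next 54.5). Without it 4556 genes were called in place of 4349, and the median of fibrous matrix was 1.31 in place of 1.16.

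Other C57BL/6 libraries stood alone for C130026I21Rik (replicate 4, 3.55 CPM), Mmp13 (replicate 3, 491), Oas3 (replicate 3, 26.5), Ifi44l (replicate 3, 0.196), Blk (replicate 2, 10.5) and Marco (replicate 2, 6.77). In STR/ort, replicate 1 stood alone for Gdf5 (10.8 CPM, next 3.49), Grem1 (0.813), Pydc3 (3.48) and Psmb9 (10.8), replicate 2 for Gm5779 (19.5) and C6 (2.61), replicate 3 for Adamts5 (95.4) and Dbp (4.9), replicate 4 for Casq1 (720) and Klf15 (4.07) and replicate 5 for Pla2g2a (4.48).

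The strain difference itself differed between injured and contralateral joints in 14 of the named genes by the interaction test of edgeR. The interaction, as the log2 difference in injured minus that in contralateral joints, was -1.59 for Fn1, -1.74 for Prg4, -1.05 for Comp, -1.81 for Mmp3, -1.30 for Dpt, -0.64 for Alox15, -2.33 for Adamts16, -1.78 for Megf10, -2.34 for Sned1 and -1.11 for Cadm3. It was 2.56 for Tnnt2, 1.37 for Il1rl1, 0.64 for Plpp1 and 0.99 for Pvr. Comp (adjusted p = 0.0445) and Alox15 (adjusted p = 0.0308) lost this call when single libraries were left out, Comp also with RLE factors (-1.03), and Plpp1 lost it without injured STR/ort replicate 3 (0.58). The other 11 of the 14 kept it under every alternative.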

How the results depend on the processing

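The count of genes called between injured joints stayed within 1.5 times under every alternative, from 3907 with 2 RUVg factors to 4721 with housekeeping scaling, and leaving out 1 library gave 3938 to 4556 genes. Of the 4349 genes called, 2651 were among those called with 1 RUVg factor (4159) and 2436 among those called with 2. The interaction moved from 85 to 151 and 165 genes with 1 and 2 RUVg factors and to 172 with DESeq2. Leaving out 1 library gave it 48 to 142 genes, with 48 without injured C57BL/6 replicate 1, 53 without its replicate 2 or 3, 51 and 56 without contralateral C57BL/6 replicate 2 and 1, 53 and 56 without injured STR/ort replicate 1 and 2, 130 without contralateral C57BL/6 replicate 5 and 142 without contralateral STR/ort replicate 3. RUVg with 1 factor also moved the count at 0-day from 2391 to 1492 and that at 1-day from 2141 to 1332. The cause was not tested. The replicate numbers of the strains mark no shared animal, and deviations of same-numbered injured libraries had correlations from -0.0829 to 0.158. Those of same-numbered injured and contralateral libraries ran from 0.102 to 0.231 in STR/ort and from -0.0224 to 0.269 in C57BL/6, where not every pair was above 0.1, and the labels do not say that a number marks 1 mouse. With the replicate number as a block 4234 genes were called between injured joints and 235 by the interaction, of which 78 were among the 85.

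Of 191 named genes called between injured joints, 138 kept their call and direction under every alternative, 50 lost the call in the same direction under at least 1, and the other 3, Col2a1, Myh4 and Tnnt3, reversed with RUVg. With RUVg, whose first factor separated the strains, 51 lost the call or reversed. Besides those given in the report or below these were Actc1, Apoe, Bmp6, Casq1, Cd163, Comp, Cox6a2, Gdf5, Has1, Ibsp, Ifi44, Mepe, Myh1, Ncam1, Nfatc1, Pla2g2a, Ptgs2, Rps19, Serpine2, Sox9, Sparc, Spp1 and Tmem8c. In some of these the fold change stayed about as large or grew while the call was lost, as for Gdf5 (2.78 with 2 factors), Tmem8c (1.44 and 2.24), Ptgs2 (1.57 with 2) and Cd163 (-0.67 with 1). Housekeeping scaling ended the calls of Nfatc1, Serpine2, Ncam1 and Cry1, and the replicate block ended that of Ncam1 (0.58). Of the 10 named genes not called, 7 gained a call under at least 1 alternative (Eln, Mmp9, Adamts5, Timp3, Klf1, S100a9 and Cxcl12). The log2 fold change reversed with 1 and 2 RUVg factors for Thbs1 (-0.097 and -0.196), Col2a1 (-0.594 and -0.462), Bglap (-0.705 and -0.68), Myh4 (0.167 and 0.359) and Tnnt3 (0.093 and 0.26). With 2 factors it also reversed for Dmp1 (-0.003), Timp4 (0.308), Tnnc2 (0.008), Ckm (0.104), Atp2a1 (0.172), Myl1 (0.025), Ryr1 (0.016) and Tnfsf11 (-0.023). Bglap, not called, was -0.057 with housekeeping scaling and from -0.014 to 0.275 when 1 library was left out (lowest without STR/ort replicate 1). Leaving out 1 library ended the call of Il1b (injured C57BL/6 replicates 2, 3 or 5 or STR/ort replicates 1, 2, 3 or 4), C6 (C57BL/6 replicates 1 to 4 or STR/ort replicate 2), Ncam1 (STR/ort replicate 1 or 3) and Osm (C57BL/6 replicate 5). Counts of called list members also moved for CC chemokines (3 and 2 higher with 1 and 2 RUVg factors, from 6), clock genes (2 and 1 lower, from 5), slow muscle (4 higher with RUVg, from 1, and 5 lower with the replicate block or without STR/ort replicate 4, from 2) and mast cells (4 lower with 1 RUVg factor, from 1). Low levels limit Marco, Masp2, Ifi44l, Pla2g2a, Mcpt2 and Gm5779, whose fold changes moved by more than 1.5 times without 1 C57BL/6 library.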
